A study of Mus musculus with 36 samples.

Results

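The genes described here are 9 genes of contractile and mural cells: Acta2, Tagln, Myh11, Cnn1, Myl9, Mylk, Rgs5, Pdgfrb and Cspg4. They are 9 of the 18194 gene symbols that have a probe set of their own on the Affymetrix mouse array, and each is represented by the probe set, annotated to that symbol alone, with the highest mean signal over all arrays. The fourth inguinal mammary gland was taken at E19 from female C57BL/6 fetuses (1 gland a fetus), wild type [ERα(+/+)] or homozygous for a disrupted estrogen receptor α gene [ERα(−/−)], from matings of heterozygous parents. Their dams carried osmotic pumps from E8 that released bisphenol A (BPA, 250 ng per kg per day), the synthetic estrogen ethinylestradiol (EE2, 10 ng per kg per day) or the vehicle, dimethylsulfoxide. Laser capture separated the epithelium of each gland from the stroma around its ducts, and each of the 12 groups of compartment, genotype and exposure holds 3 arrays from 3 litters, 36 arrays in all. The genotypes of an exposure may share litters, which the labels do not give. The receptor is disrupted in every cell of these mice, so the groups do not separate the receptor of the stroma from that of the epithelium.

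Contractile cells of vessels, ducts and alveoli share one machinery. Smooth muscle actin (Acta2) and smooth muscle myosin heavy chain (Myh11) slide past each other once myosin light chain kinase (Mylk) has phosphorylated the regulatory light chain (Myl9), while transgelin (Tagln) and calponin (Cnn1) bind the actin filaments. Pericytes sit on capillaries and are marked by the PDGF receptor β (Pdgfrb), through which endothelial PDGF recruits them, by the G protein regulator Rgs5 and by the proteoglycan NG2 (Cspg4). In the mammary gland the basal epithelial layer matures into myoepithelium, which takes up the same actin and myosin genes to eject milk, so that a contractile transcript can come from a vessel wall or from the duct itself. Many of these genes are under serum response factor, which binds CArG boxes and works with the coactivator myocardin.

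The promoters of 6 of the 9 genes were found in the RefSeq table (build GRCm38.p6). The 250 bases before the start site are shown for 2 contractile genes that did not pass the test between the compartments given below (Acta2 and Myl9), and for a contractile and a pericyte gene that were higher in the stroma (Mylk and Rgs5). Capitals mark CArG boxes, 10 letters of which at most 1 departs from the consensus, and each sequence reads 5′ to 3′ along the strand of its gene. The Acta2 window is chr19:34255374-34255623 on the minus strand, and the others, on the plus strand, are chr2:156775214-156775463 for Myl9, chr16:34784700-34784949 for Mylk and chr1:169655251-169655500 for Rgs5.
Acta2: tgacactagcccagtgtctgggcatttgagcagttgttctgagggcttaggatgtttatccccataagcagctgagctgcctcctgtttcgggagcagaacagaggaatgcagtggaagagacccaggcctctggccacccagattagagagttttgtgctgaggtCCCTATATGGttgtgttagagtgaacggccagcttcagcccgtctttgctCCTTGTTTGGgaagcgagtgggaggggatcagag
Myl9: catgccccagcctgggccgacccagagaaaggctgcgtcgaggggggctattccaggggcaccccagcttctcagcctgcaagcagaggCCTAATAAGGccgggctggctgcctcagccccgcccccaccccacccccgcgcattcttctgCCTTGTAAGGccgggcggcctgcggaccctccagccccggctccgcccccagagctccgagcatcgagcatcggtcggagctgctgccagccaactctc
Mylk: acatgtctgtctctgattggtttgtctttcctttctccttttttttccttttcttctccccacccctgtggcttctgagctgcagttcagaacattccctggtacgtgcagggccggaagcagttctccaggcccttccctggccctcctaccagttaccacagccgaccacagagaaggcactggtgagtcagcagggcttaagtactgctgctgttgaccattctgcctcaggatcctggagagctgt
Rgs5: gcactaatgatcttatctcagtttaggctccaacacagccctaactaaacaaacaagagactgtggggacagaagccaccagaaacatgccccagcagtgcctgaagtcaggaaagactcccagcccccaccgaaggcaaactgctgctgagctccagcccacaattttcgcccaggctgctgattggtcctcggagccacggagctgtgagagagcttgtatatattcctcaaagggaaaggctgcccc

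The Acta2 promoter holds 2 such boxes, which begin 84 and 34 bases before the start site, each with 1 departure. That of Myl9 holds an exact box at 161 bases and another with 1 departure at 99 bases. No box was found in the windows of Mylk, Rgs5 and Cnn1, and that of Cspg4 holds 2 that overlap, at 238 and 237 bases. Of all 32851 promoters in the table, 1.47% hold an exact box within the same length and 18.6% hold one with at most 1 departure. The TEAD motif CATTCC, searched on both strands, lies in the windows of Acta2 and Mylk and in 12.6% of all promoters. A match is a description of the letters and not a measured binding site, and its absence says only that the letters are not in this window.

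Signals were linear intensities, and an array's median signal ranged from 10.9 to 66.8. Stroma ERα(+/+) vehicle replicate 2 (median signal 12), stroma ERα(+/+) BPA replicate 3 (14.6) and epithelium ERα(+/+) vehicle replicate 2 (10.9) were the dimmest arrays. The receptor gene itself, Esr1, had a signal of 140 ± 122 in ERα(+/+) stroma and 41.0 ± 19.9 in ERα(−/−) stroma, and of 48.3 ± 44.4 and 28.7 ± 30.4 in the epithelium (SD, n = 9). Krt8, the keratin of luminal cells, had a log2 change of −4.48, stroma against epithelium, and all 12 endothelial markers were higher in the stroma.

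Of the 9 genes, 6 gave higher signals in the stroma around the ducts when each gland's captures were compared, and none gave lower ones. They were Pdgfrb, Rgs5 and Cspg4, listed here as pericyte markers, and the contractile genes Mylk, Myh11 and Tagln. Mean folds ran from 2.26 to 4.93 over 18 glands. Whether the signals of the listed markers came from pericytes was not tested. The call is an adjusted p under 0.05 in limma, with the gland as a block and p-values adjusted by Benjamini-Hochberg across the whole array of 45101 probe sets. Captures were paired into glands by replicate number, an assumption, since the labels do not say that equal numbers mark 1 gland. Of all probe sets 21.3% were called, 4.51% as higher and 16.8% as lower in the stroma. The median log2 change was 1.36 over the 9 genes and −0.35 over all probe sets. After quantile normalization, which removes that shift, 3607 of 7274 called probe sets were higher, against 2034 of 9607 without it. The Gapdh ratio of 3′ over 5′ signal, a measure of RNA integrity, ran from 6.01 to 20.8 (median 11.4) on stroma arrays and from 5.09 to 12.9 (median 8.33) on epithelium arrays, and its part in the difference was not tested. In bulk captures like these, fewer cells of a type and less RNA per cell cannot be told apart.

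Pdgfrb, the receptor by which pericytes answer endothelial PDGF, gave the most regular difference. Its signals ran from 704 to 2266 (median 1082) in the stroma and from 52 to 792 (median 416) in the epithelium. The stroma exceeded the epithelium in all 18 glands, although the brightest epithelium arrays, ERα(−/−) EE2 replicate 1 (792) and ERα(+/+) BPA replicate 1 (722), reached the range of the stroma. The mean fold was 4.21, 2.08 (standard error 0.31, adjusted p = 7.31e-05) on the log2 scale. Rgs5, which shortens signals of G protein-coupled receptors and marks pericytes, ran from 251 to 2811 (median 1665) in the stroma and from 38.6 to 1274 (median 298) in the epithelium. It was higher in the stroma of 17 of 18 glands, the exception being ERα(−/−) BPA replicate 1 with 790.5 and 846, and the log2 difference was 2.30 (standard error 0.38, adjusted p = 0.000226). Its other 3 probe sets gave 2.05, 1.96 and 1.96, each called, and the other probe set of Pdgfrb gave 1.38 (adjusted p = 0.0118). Cspg4, the NG2 proteoglycan of the pericyte surface, ran from 43.4 to 739 (median 271) in the stroma and from 7.5 to 738 (median 162) in the epithelium, so that the ranges lay over each other. The stroma was higher in 14 of 18 glands, a log2 difference of 1.17 (standard error 0.36, adjusted p = 0.0236). Its second, dimmer probe set (mean signal 47.5) gave 0.54 (adjusted p = 0.186).

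Of the contractile genes, Mylk encodes the kinase that switches on smooth muscle myosin. Its signals ran from 501 to 3255 (median 1452) in the stroma and from 47.7 to 1732 (median 428) in the epithelium, and the highest epithelium value belonged to ERα(+/+) vehicle replicate 3. The stroma was higher in 17 of 18 glands, by 1.91 (standard error 0.35, adjusted p = 0.000633) on the log2 scale, and both other probe sets of Mylk were called, with 1.28 and 1.90. Myh11, the motor of smooth muscle, ran from 16.6 to 2468 (median 607) in the stroma and from 8.9 to 1566 (median 168) in the epithelium. The difference was 1.97 (standard error 0.54, adjusted p = 0.0121) on the log2 scale, with the stroma higher in 16 of 18 glands. A dimmer Myh11 probe set with a mean signal of 46.9 gave −0.55 (adjusted p = 0.41). Tagln, an actin-binding protein of early smooth muscle, ran from 1.5 to 731 (median 281) in the stroma and from 1.8 to 888 (median 83.8) in the epithelium, where ERα(+/+) vehicle replicate 3 held the highest value of all 36 arrays. It was higher in the stroma of 14 of 18 glands, by 1.36 (standard error 0.38, adjusted p = 0.0149). The calls for Tagln and Cspg4 rest on the block: without it their adjusted p were 0.199 and 0.0866, and with the gland as a random block 0.131 and 0.0525.

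Acta2, Myl9 and Cnn1 were not called. Acta2, the actin by which smooth muscle and myoepithelium are usually recognised, had strong signals in both compartments, from 706 to 4705 (median 1871) in the stroma and from 482 to 4529 (median 1198) in the epithelium. Both highest values, 4705 and 4529, came from the gland of ERα(+/+) vehicle replicate 3. The log2 change was 0.51 (standard error 0.23, adjusted p = 0.125), with the stroma higher in 13 of 18 glands, and it passed after quantile normalization (0.76, adjusted p = 0.0342) and after subtraction of array medians (0.92, adjusted p = 0.0147). Of its other probe sets 1 gave 1.18 (adjusted p = 0.24) and a very dim one −0.62 (adjusted p = 0.363). Myl9, the regulatory light chain, ran from 2.7 to 1466 (median 555) in the stroma and from 89.8 to 1452 (median 303) in the epithelium, a change of 0.17 (standard error 0.45, adjusted p = 0.825) with a 95% interval of −0.77 to 1.12. Cnn1, a calponin of late smooth muscle, was dim throughout, from 0.8 to 115 (median 15.2) and from 0.6 to 102 (median 17.4), and lay under the array's median signal on 27 of 36 arrays. Its change of −0.39 (standard error 0.51, adjusted p = 0.635) turned to 0.025 when array medians were subtracted.

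**Figure D1:**
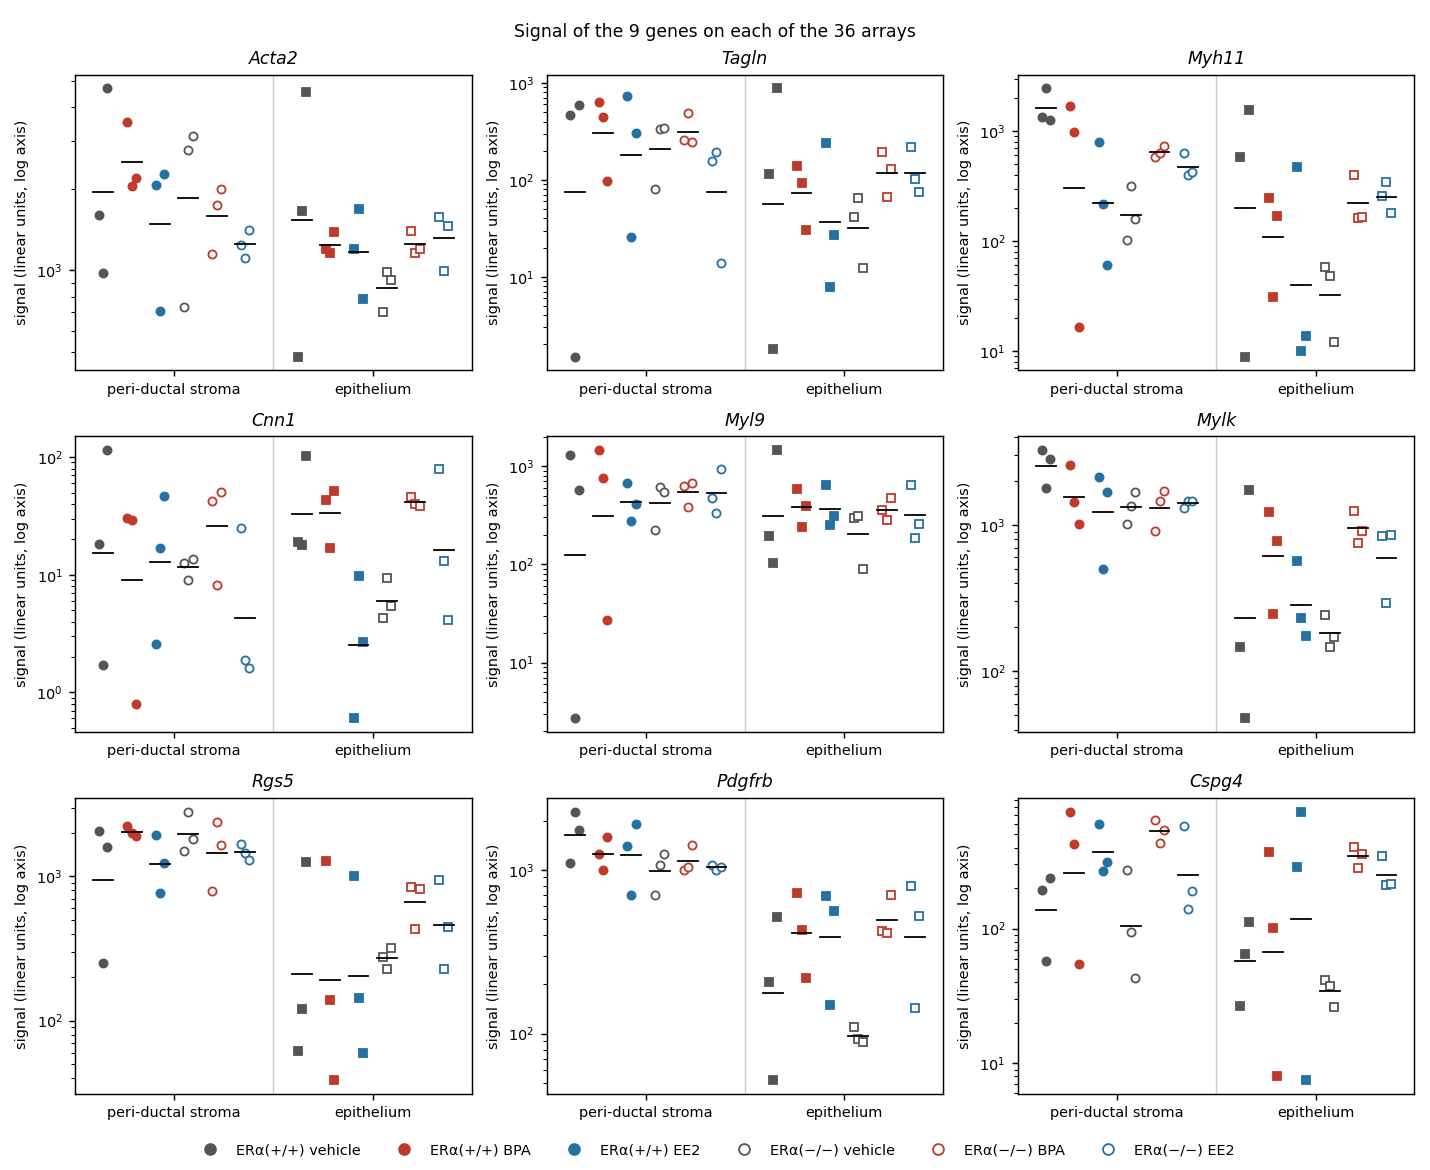
Signal of each of the 9 genes (linear units on a log axis) on the 36 arrays, by compartment; color and fill give the exposure and genotype, points are arrays and short lines are geometric means of 3. Pdgfrb, Rgs5 and Mylk sit higher in the stroma, while the ranges of Acta2 and Myl9 in the compartments lie largely over each other and Cnn1 is dim.

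**Figure D2:**
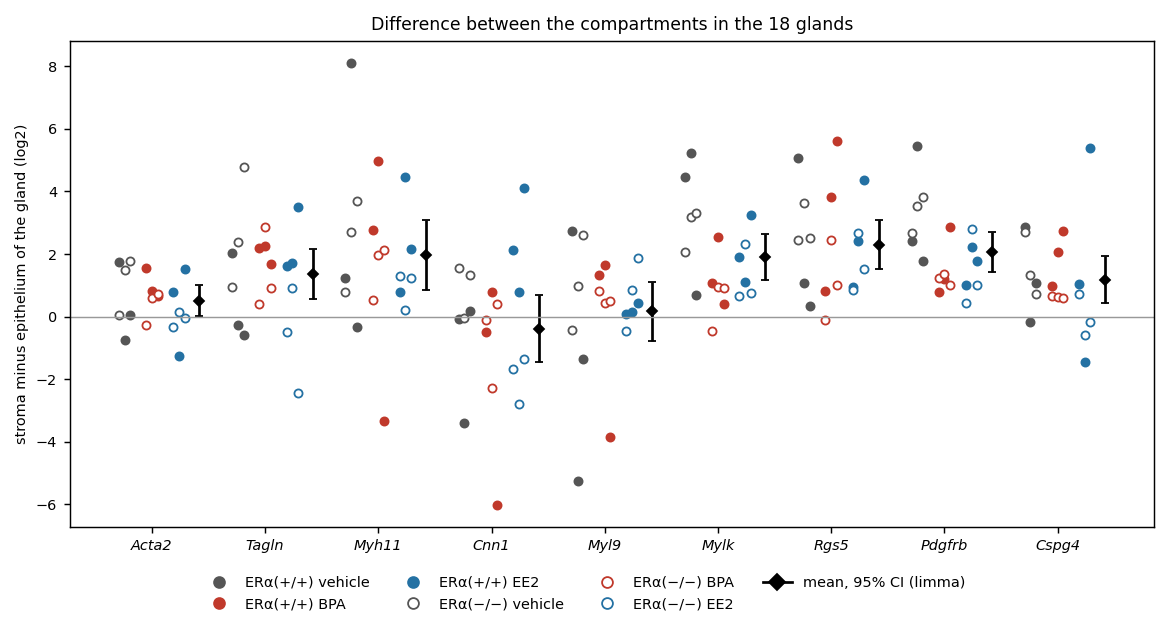
Stroma minus epithelium of the same gland, paired by replicate number, in log2 units for the 9 genes. Each point is 1 of 18 glands, and the diamond is the mean with its 95% interval from limma. All 18 glands lie above 0 for Pdgfrb, and 8 of 18 do for Cnn1.

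The size of the difference between the compartments was compared between exposures and genotypes. For Mylk the stroma exceeded the epithelium by 3.16 ± 1.63 in vehicle glands, 0.91 ± 0.98 after BPA and 1.67 ± 1.02 after EE2 on the log2 scale (SD, n = 6). For Pdgfrb the corresponding values were 3.28 ± 1.30, 1.41 ± 0.74 and 1.54 ± 0.89. In both genes the mean gap was widest in the vehicle glands. The stroma was higher in 6 of 6 glands of each exposure for Pdgfrb. For Mylk it was higher in 6 of 6 after vehicle, 5 of 6 after BPA and 6 of 6 after EE2. Tested as interactions, the gap for Mylk differed between BPA and vehicle by −2.25 (standard error 0.76, unadjusted p = 0.00944, adjusted p = 0.553). For Pdgfrb it differed by −1.87 (standard error 0.68, unadjusted p = 0.0143, adjusted p = 0.578) for BPA and by −1.73 (standard error 0.68, unadjusted p = 0.0211, adjusted p = 0.596) for EE2. None of the 9 genes passed the adjusted threshold in any of these interactions, nor did any probe set (0% called), and unadjusted p under 0.05 were held by 7.68% of all probe sets for BPA and 7.49% for EE2. Over all probe sets the median of these interactions was −0.51 for BPA and −0.38 for EE2. BPA and EE2 were set against the same vehicle glands. For Rgs5 the gap was 2.51 ± 1.71, 2.27 ± 2.15 and 2.13 ± 1.32, which differed by less than its spread. Between genotypes the interaction ran from −0.88 to 1.25 over the 9 genes, with no unadjusted p under 0.05 beside 5.41% of all probe sets.

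Other genes of the same pathways were taken from lists of contractile, regulatory and cell type genes. Of 22 further measured contractile genes, the stroma was higher for 2 and lower for 3, and 17 were not called, with a median change of −0.21. Desmin (Des), the intermediate filament of muscle, was higher by 1.66 and the amine oxidase Aoc3 by 1.20. Integrin α8 (Itga8) was at −3.43 (adjusted p = 1.56e-05) and the actinin Actn1 at −0.95 (adjusted p = 0.000493), and Csrp1 at −1.13 (adjusted p = 0.0104). The other smooth muscle actin, Actg2, named for its role after its value was seen, gave −1.02 (adjusted p = 0.0701) and was not called. Among 13 genes of the serum response factor system, myocardin (Myocd) was higher in the stroma by 2.21, with Klf4 at 1.71, Gata6 at 1.46 and Fhl1 at 1.37. These were picked as the largest changes among the called genes of the list and do not stand for all 13. Myocd and Gata6 were dim, with mean signals of 67.7 and 93.9. Fhl2 was lower, at −1.20 (adjusted p = 0.00108), and Srf itself gave −0.43 (adjusted p = 0.387). Both were named after their values were seen. Of 15 genes that set myosin phosphorylation, 3 were called: the cyclic GMP kinase Prkg1 (1.41) and the guanylate cyclase subunit Gucy1a1 (1.35) were higher, and the non-muscle myosin Myh10 (−0.68) was lower.

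A further list of pericyte and PDGF genes went with Pdgfrb and Rgs5 in part. It holds the ligands Pdgfa, Pdgfb and Pdgfd, and Pdgfra, which is on the fibroblast list as well, so its counts are not of pericyte markers alone. Of 20 measured, 9 were higher in the stroma, 1 was lower and 10 were not called, with a median change of 0.46. The subunits of the vascular potassium channel, Abcc9 and Kcnj8, were higher by 3.01 (adjusted p = 0.00296) and 2.14 (adjusted p = 0.000771), and the ligand Pdgfd by 2.38 (adjusted p = 0.00316). Foxc1 was lower, at −2.65 (adjusted p = 1.07e-06). Genes of the basal layer ran the other way: 12 of 14 were lower in the stroma, 1 was higher and 1 was not called, with a median change of −2.17. The oxytocin receptor Oxtr, through which milk ejection is triggered, was at −4.72 (adjusted p = 5.46e-08) and the basal keratins Krt14 and Krt17 at −3.55 (adjusted p = 4.65e-08) and −3.33 (adjusted p = 4.49e-05), followed by the integrin Itgb4 at −3.30 (adjusted p = 8.55e-05). Fibroblast markers were higher in the stroma in 11 of 11 cases (median 1.73), endothelial in 12 of 12 (median 1.94), adipocyte in 9 of 9 (median 1.72) and leukocyte in 10 of 12 (median 1.96). Skeletal muscle genes were called in 1 of 18 cases, Des again, but 3 stroma and 2 epithelium arrays held very high muscle signals, and the same 6 genes were called without these arrays.

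**Figure D3:**
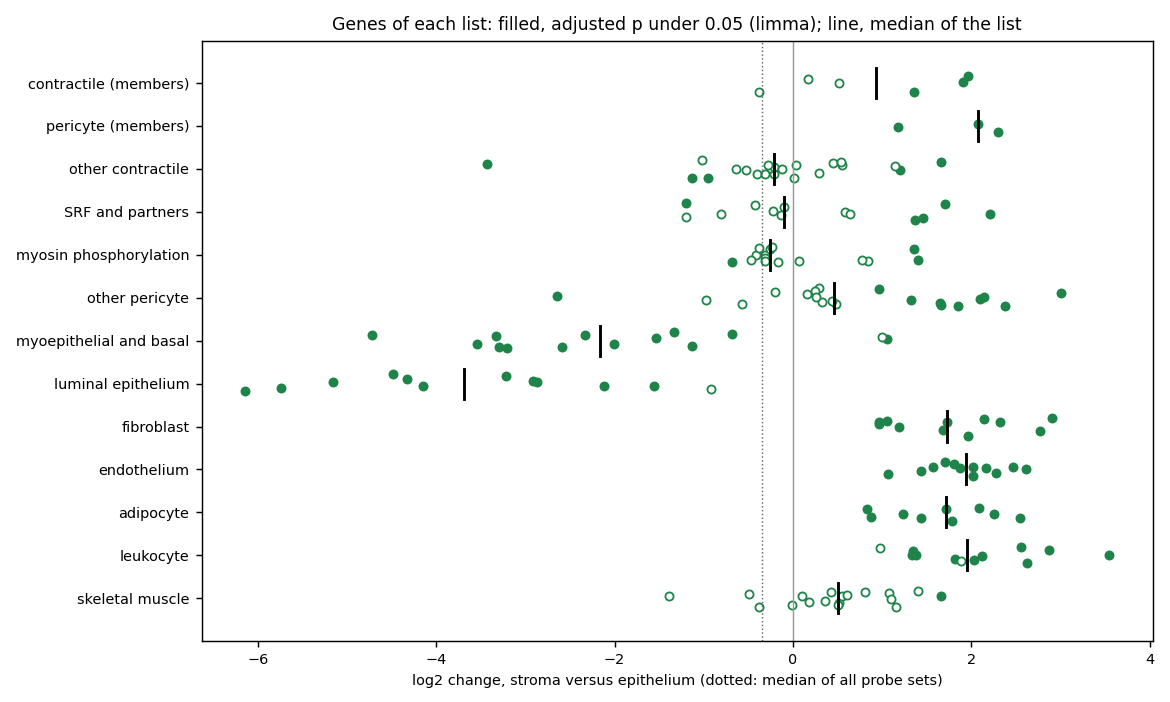
Log2 change between stroma and epithelium for each measured gene of the 13 lists; filled points have an adjusted p under 0.05 in limma, black lines are list medians and the dotted line is the median of all probe sets. The list medians are 2.08 for the 3 pericyte genes, 1.94 for endothelial, 1.73 for fibroblast, 1.72 for adipocyte and 1.96 for leukocyte genes, and −2.17 for the basal list.

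In the peri-ductal stroma the exposures were set against vehicle over both genotypes. None of the 9 genes passed the adjusted threshold for BPA or EE2, and no probe set did (0% called for each). Cspg4 had the largest difference after BPA. Its signals in ERα(+/+) stroma were 194, 57.4 and 237 after vehicle and 739, 424 and 54.3 after BPA (replicates 1 to 3). In ERα(−/−) stroma they were 274, 94.5 and 43.4 after vehicle and 637, 436 and 542 after BPA. The BPA arrays of ERα(−/−) mice all lay above their vehicle arrays, as did those of 9.39% of all probe sets, while the dim ERα(+/+) BPA replicate 3 lay below every ERα(+/+) vehicle array. The log2 change was 1.63 (standard error 0.68, unadjusted p = 0.0289, adjusted p = 0.993) over both genotypes, and 4.54% of all probe sets had an unadjusted p under 0.05. For EE2 the change of Cspg4 was 1.34 (standard error 0.68, adjusted p = 0.996), and none of the 9 genes had an unadjusted p under 0.05, beside 4.51% of all probe sets. The second, dimmer probe set of Cspg4 went the other way in the stroma. It gave −0.50 (adjusted p = 0.993 in limma) for BPA and −0.47 (adjusted p = 0.996) for EE2. The other 8 genes ran from −0.36 (Mylk) to 1.30 (Tagln) after BPA and from −0.86 (Cnn1) to 1.06 (Myl9) after EE2. The 95% intervals of Pdgfrb, −0.93 to 0.76 for BPA and −1.01 to 0.69 for EE2, were the narrowest of the 9 genes. Those of Tagln, −1.45 to 4.05 and −2.87 to 2.63, were the widest. The other Pdgfrb probe set gave 1.36 for BPA (standard error 0.73, unadjusted p = 0.0813, adjusted p = 0.993 in limma), above the interval of the brighter one. For EE2 it gave 0.61 (standard error 0.73, adjusted p = 0.996).

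The stromal signal of Pdgfrb after vehicle ran from 706 to 2266 (median 1175), after BPA from 992 to 1585 (median 1144) and after EE2 from 704 to 1915 (median 1056), and these ranges overlapped. Acta2 ran from 733 to 4705 (median 2192) after vehicle, from 1153 to 3513 (median 2026) after BPA and from 706 to 2265 (median 1329.9) after EE2, and its EE2 change of −0.48 (standard error 0.52, adjusted p = 0.996) lay within the spread of the arrays. Tagln and Myl9 were lowest on the dim ERα(+/+) vehicle replicate 2, at 1.5 and 2.7.

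In the epithelium all 9 genes had positive changes after BPA and 8 had positive changes after EE2, but again none passed. The medians over the 9 genes were 1.13 and 0.44, beside 0.68 and 0.40 over all probe sets. The part of this difference over all probe sets in the changes of the 9 genes was not tested. Called probe sets made up 0% for BPA and 0.00222% for EE2, and unadjusted p under 0.05 were held by 17.7% and 8.88%. Pdgfrb had signals of 206, 52 and 514 in ERα(+/+) and 110, 92.7 and 88.8 in ERα(−/−) epithelium after vehicle. After BPA they were 722, 432 and 219 in ERα(+/+) and 421, 411 and 698 in ERα(−/−) epithelium. After EE2 they were 689, 149 and 563 in ERα(+/+) and 792, 144 and 525 in ERα(−/−) epithelium. All vehicle arrays but ERα(+/+) replicate 3, at 514, lay below all 6 BPA arrays, while 2 EE2 arrays, 1 of each genotype, lay below ERα(+/+) vehicle replicate 1. The log2 changes were 1.78 (standard error 0.60, unadjusted p = 0.0095, adjusted p = 0.216) for BPA and 1.57 (standard error 0.60, unadjusted p = 0.0192, adjusted p = 0.521) for EE2. The other Pdgfrb probe set gave 0.93 (adjusted p = 0.483 in limma) for BPA and 1.01 (adjusted p = 0.677) for EE2.

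The epithelial signal of Mylk was at most 243 on all vehicle arrays but 1. Vehicle glands of ERα(+/+) mice gave 147, 47.7 and 1732, against 1217, 245 and 774 with BPA and 566, 231 and 175 with EE2. Those of ERα(−/−) mice gave 243, 148 and 171, against 1238, 755 and 907 with BPA and 839, 291 and 849.6 with EE2. The log2 changes were 1.89 (standard error 0.72, unadjusted p = 0.018, adjusted p = 0.23) for BPA and 1.00 (standard error 0.72, adjusted p = 0.664) for EE2. The other Mylk probe sets gave 1.33 (adjusted p = 0.257 in limma) and 2.19 (adjusted p = 0.301) for BPA. For EE2 they gave 0.53 (adjusted p = 0.771) and 1.01 (adjusted p = 0.778). The BPA value of the brightest probe set moved with single arrays. Without ERα(+/+) vehicle replicate 3 it was 2.62 (adjusted p = 0.0458) and passed, and without ERα(+/+) vehicle replicate 2 it was 1.32 (adjusted p = 0.457). Scaling moved it as well, to 1.31 after quantile normalization (unadjusted p = 0.0551) and 0.99 after subtraction of array medians. For Pdgfrb the same scalings gave 1.18 (unadjusted p = 0.0272) and 0.88. Acta2 had 0.12 (adjusted p = 0.897) as deposited and turned to −0.22 and −0.79 under these scalings, and Myl9 and Rgs5 turned from 0.57 and 0.57 to −0.33 and −0.33 under the latter.

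**Figure D4:**
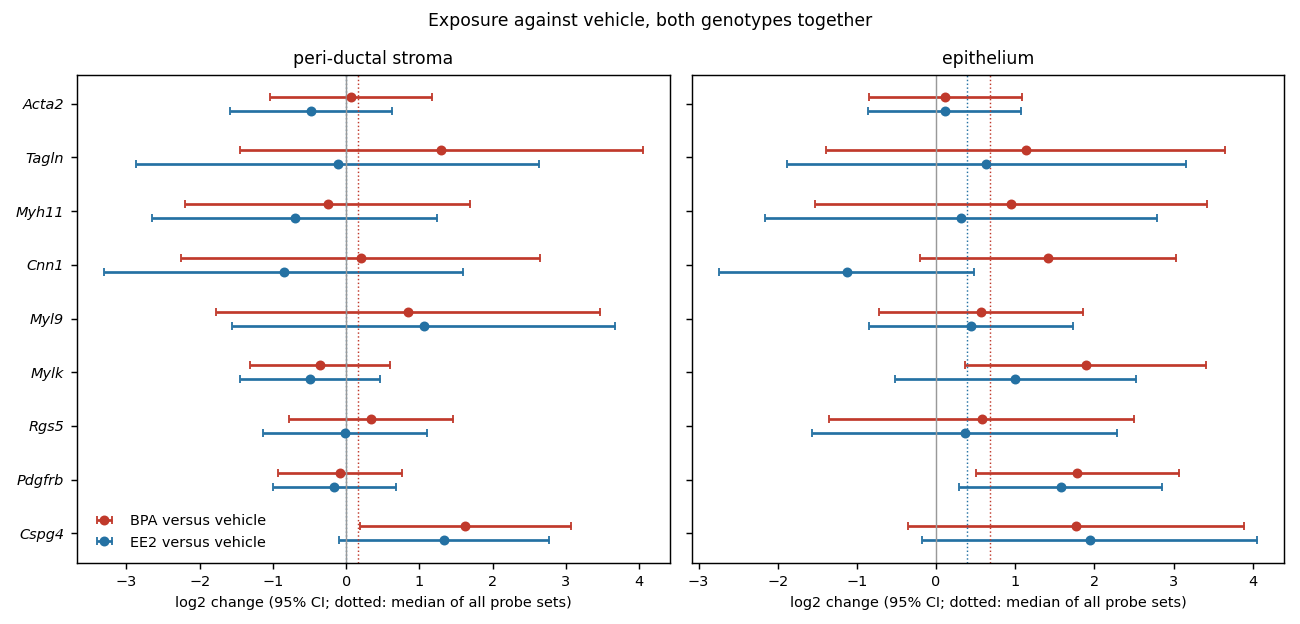
Log2 change of the 9 genes after BPA and after EE2 against vehicle, over both genotypes, in the peri-ductal stroma (left) and the epithelium (right); bars are 95% intervals and dotted lines the median of all probe sets. In the epithelium the intervals of Mylk and Pdgfrb after BPA and of Pdgfrb after EE2 lie above 0, and none passed adjustment.

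The exposures were then compared in ERα(−/−) epithelium alone. Cspg4 had signals of 41.8, 37.8 and 26.1 after vehicle, 405, 282 and 356 after BPA and 347, 212 and 216 after EE2. All 6 exposed arrays lay above all 3 vehicle arrays, and the log2 changes were 3.31 (standard error 1.41, unadjusted p = 0.0325, adjusted p = 0.421) for BPA and 2.86 (standard error 1.41, adjusted p = 0.594) for EE2. The corresponding BPA values were 2.35 (standard error 0.85, unadjusted p = 0.0142, adjusted p = 0.389) for Pdgfrb and 2.37 (standard error 1.01, unadjusted p = 0.033, adjusted p = 0.422) for Mylk. Cnn1 was 4.3, 9.4 and 5.4 after vehicle and 45.7, 39.9 and 38.6 after BPA, a change of 2.78 (standard error 1.08, unadjusted p = 0.0204, adjusted p = 0.404) between dim values. The median change over all probe sets was 0.74 for BPA and 0.60 for EE2. With array medians subtracted the BPA values were 2.28 for Cspg4, 1.31 for Pdgfrb, 1.33 for Mylk and 1.74 for Cnn1, and with an offset of 16 that of Cnn1 was 1.36. After BPA 8 of the 9 genes, Myl9 being the exception, had ERα(−/−) arrays wholly above those of vehicle, as had 24.8% of all probe sets. After EE2 6 of 9 had, against 16.5%. In limma none of the 9 passed for either exposure (0.00222% and 0.00443% of all probe sets called), and after BPA 4 had an unadjusted p under 0.05, beside 11.2% of all probe sets. Whether the exposures acted differently in the genotypes was tested as an interaction. It ran from 0.54 to 3.64 over the 9 genes for BPA and from 0.39 to 5.29 for EE2, and no gene passed. The EE2 values at the upper end were 5.13 (standard error 1.52, unadjusted p = 0.00398, adjusted p = 0.696) for Cnn1 and 5.29 (standard error 2.33, unadjusted p = 0.0381, adjusted p = 0.826) for Myh11, beside 6.01% of probe sets with an unadjusted p under 0.05. In ERα(+/+) epithelium alone none of the 9 genes had an unadjusted p under 0.05 after BPA (8.44% of probe sets), and after EE2 (6.15%) only Cnn1 had one, with −3.70 (standard error 1.08, unadjusted p = 0.00349, adjusted p = 0.651). Its signals there were near the dim end, and with an offset of 16 added before the log this value was −1.38 and the interaction 2.16.

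Markers of other cell types differed between the same arrays. The summed signal of the 12 endothelial markers in ERα(+/+) epithelium was 332, 295 and 3837 with vehicle, 5203, 561 and 530.3 with BPA and 3652, 1553 and 258 with EE2. In ERα(−/−) epithelium it was 428, 572 and 367 with vehicle, 3578, 2252 and 3084 with BPA and 2309.6, 1406 and 1826 with EE2. Vehicle replicate 3 of ERα(+/+) mice, which held the highest epithelial signals of Acta2, Tagln, Myh11, Mylk and Myl9, stood apart here too, with the highest Cnn1 as well, and ERα(+/+) BPA replicate 1 had the highest sum of the epithelium. In the stroma the sum ran from 1168 to 6928 (median 4562). After BPA 6 of the 12 endothelial markers had an unadjusted p under 0.05 in the epithelium, all higher, with a median change of 2.20, and none was called. Over all probe sets 17.7% had such a p and the median change was 0.68. The fibroblast sum ran from 8118 to 35869 (median 11928) after vehicle and from 16132 to 34481 (median 24546) after BPA, and the adipocyte sum from 5046 to 43568 (median 16537) and from 9935 to 54572 (median 39538). In the epithelium the Gapdh ratio averaged 10.6 ± 1.77 with vehicle, 7.19 ± 1.61 with BPA and 7.99 ± 2.80 with EE2 (SD, n = 6). The part of these cell types and of RNA quality in the changes of Pdgfrb, Mylk and Cspg4 was not tested.

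**Figure D5:**
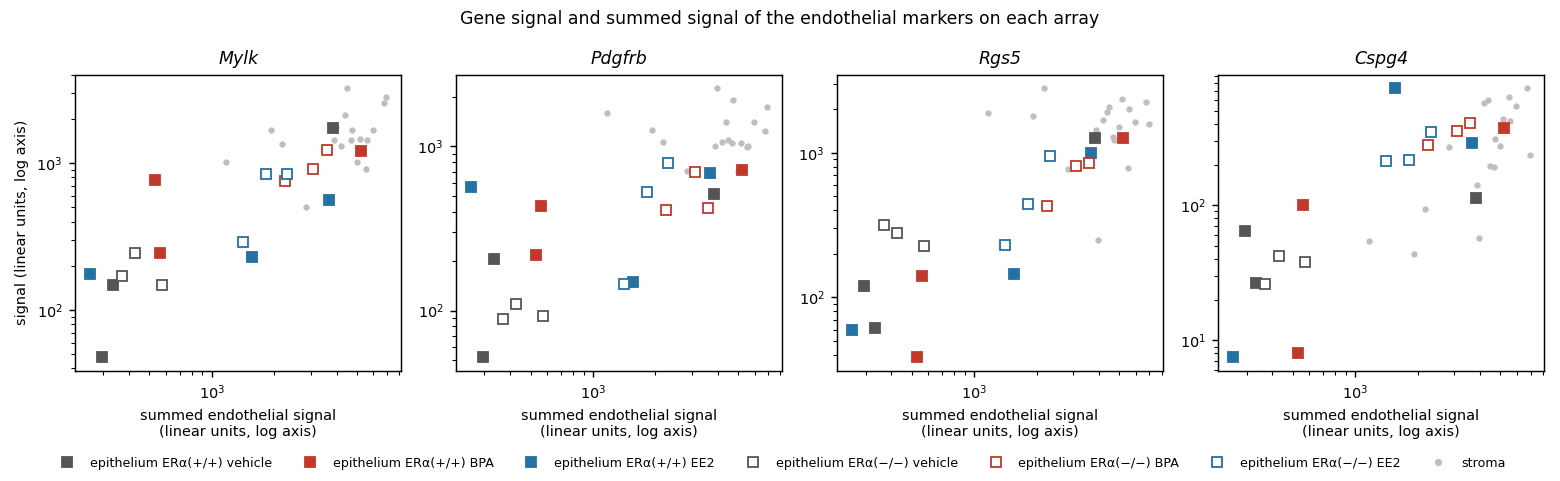
Signal of Mylk, Pdgfrb, Rgs5 and Cspg4 against the summed signal of 12 endothelial markers, both in linear units on log axes; squares are epithelium arrays by exposure and genotype, and grey points are stroma arrays. All epithelium vehicle arrays but 1 have sums between 295 and 572, and the remaining one, at 3837, lies within the range of the stroma arrays.

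Pathway genes beside the 9 were counted in the same comparisons. In the epithelium after BPA 3 of 22 further contractile genes (median change 0.37), 3 of 13 of the serum response factor system (0.76), none of 15 of myosin phosphorylation (0.34) and 2 of 20 of the list of pericyte and PDGF genes (1.12) had an unadjusted p under 0.05, all higher, beside 17.7% of all probe sets and a median of 0.68 over them. After EE2 the only ones were 2 of the list of pericyte and PDGF genes, beside 8.88% of all probe sets. In the stroma after BPA they were 1 further contractile gene and 1 of myosin phosphorylation, beside 4.54% of all probe sets, and after EE2, beside 4.51%, there was none. None was called in any of these comparisons.

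BPA and EE2 were also compared directly. None of the 9 genes passed in either compartment, where 0% and 0% of probe sets were called. In the epithelium Cnn1 had a log2 difference, BPA minus EE2, of 2.54 (standard error 0.76, unadjusted p = 0.00426, adjusted p = 1), where 4.22% of probe sets had an unadjusted p under 0.05. Its signals in ERα(+/+) epithelium were 43, 17 and 51.6 after BPA and 0.6, 9.7 and 2.7 after EE2. In ERα(−/−) epithelium EE2 gave 79.8, 13.2 and 4.1, a range that covers the BPA values. With the offset of 16 the difference was 0.96 (adjusted p = 0.999). For Pdgfrb the difference was 0.21 in the epithelium, with a 95% interval of −1.07 to 1.49, and 0.08 in the stroma, with −0.77 to 0.92. For Acta2 the intervals were −0.96 to 0.98 and −0.56 to 1.65.

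Genotype was compared last. Over all exposures none of the 9 genes passed in the stroma or the epithelium, and 0.00222% and 0% of all probe sets were called. The changes, ERα(−/−) against ERα(+/+), ran from −0.37 (Pdgfrb) to 0.95 (Myl9) in the stroma and from −0.30 (Myl9) to 1.11 (Rgs5) in the epithelium. In the stroma of vehicle glands Myh11 had the largest difference of the 9 genes. Its stromal signals after vehicle were 1355, 2468 and 1249.7 in ERα(+/+) mice and 102, 315 and 158 in ERα(−/−) mice, without overlap. The log2 difference was −3.23 (standard error 1.30, unadjusted p = 0.0242, adjusted p = 0.999), where 0% of probe sets were called and 4.07% had an unadjusted p under 0.05. Mylk was the only other of the 9 genes without overlap here, also lower in ERα(−/−) stroma, beside 3.3% of all probe sets. In exposed stroma the genotypes overlapped. After BPA Myh11 was 1697, 985 and 16.6 in ERα(+/+) and 587, 628 and 730.3 in ERα(−/−) stroma, and after EE2 803, 218 and 61 and 628, 403 and 421. As interactions of genotype and exposure, which share the vehicle arrays, the changes of Myh11 were 4.32 (standard error 1.84, unadjusted p = 0.0316, adjusted p = 1) for BPA and 4.33 (standard error 1.84, unadjusted p = 0.0312, adjusted p = 1) for EE2, beside 3.68% and 3.99% of probe sets with an unadjusted p under 0.05. In the epithelium of vehicle glands 8 of the 9 genes had negative changes, with a median of −0.83 beside 0.18 over all probe sets, and none was called (0% of probe sets). Cnn1 had −2.43 (standard error 1.08, unadjusted p = 0.0383, adjusted p = 0.843) and was the 1 gene without overlap, beside 5.89% of probe sets with an unadjusted p under 0.05 and 2.63% wholly lower. A single array carried much of the stromal Myh11 interaction for BPA: without stroma ERα(+/+) BPA replicate 3 it was 2.23.

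Across the 36 arrays after quantile normalization, the genes whose signals ranked most like those of Acta2 were Lepr (Spearman's rho 0.72), Stab1 (0.69), Nr2f2 (0.68), Mylk (0.68) and Sod3 (0.67), out of 8144 genes with a mean signal of at least 100. Tagln stood at rank 18, Rgs5 at 20, Myl9 at 42, Pdgfrb at 99, Myh11 at 552 and Cspg4 at 1101. For Pdgfrb they were Mrc1 (0.91), Cdh11 (0.90), Cavin1 (0.89), Col6a1 (0.88) and Lgals1 (0.88), with Mylk at rank 21, Rgs5 at 119, Acta2 at 747, Tagln at 763, Myh11 at 813, Myl9 at 1136 and Cspg4 at 1475. Cnn1 was too dim to be ranked. These values describe arrays that share compartments, glands and signal scale, and in the stroma or the epithelium alone, with 18 arrays each, only Stab1 of these genes, in the epithelium for Acta2, was again among the 5 most alike. In the stroma alone Pdgfrb had a rho of 0.14 with Rgs5 (rank 2413) and −0.59 with Cspg4 (rank 7888). In the epithelium alone the values were 0.52 (rank 461) and 0.43 (rank 892).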

How the data were processed

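RNA of the captured compartments was amplified and hybridised to Affymetrix Mouse Genome 430 2.0 arrays. The deposited values are linear intensities, 1 per probe set and array, with 39 values of 0 and unequal array distributions. The authors' methods describe GCOS cell files, robust multi-array averaging and logs, which differ from these values, and the scaling applied before deposit was not given in the sources used here. Precision is limited by how many arrays there are.

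A floor of 0.1 was set before log2 was taken, and no further scaling was applied. The annotation gave 1 symbol for 34958 of 45101 probe sets, more than 1 for 932 and no symbol for 9211. Stroma and epithelium were compared over 36 arrays with the gland as a block, since by the methods both captures came from 1 gland. The labels do not say that equal replicate numbers mark 1 gland, and this pairing was assumed. The residuals of captures with the same number had a mean correlation of 0.08, over 0.1 in 7 of 18 pairs, and −0.04 for other numbers of the group. Residuals were centred within each group of 3 arrays, so the second value largely follows from the first and is no separate evidence for the pairing. Among the 3 numbers of the group, the same number was the best match in 14 of 18. Exposures and genotypes were compared within each compartment over its 6 groups of 3 arrays. Tests used limma 3.58.1 with statmod 1.5.0 in R 4.3.3, and p-values were adjusted by Benjamini-Hochberg across the whole array; a call is an adjusted p under 0.05. The procedure was tested on simulated data. Figures were drawn in Python 3.11.15 with matplotlib 3.10.9 and pandas 2.3.3. Named beside the 9 genes are at most 4 called genes of each list with the largest change, and the 5 genes most like Acta2 and Pdgfrb by Spearman's rho, with exceptions stated. Of 175 listed genes 167 were measured. Members and lists were chosen with earlier results of these data known. Alternatives were other scalings, an offset of 16, a filter on dim probe sets, array weights, a variance trend, other blocks, other probe sets, the methods' t-test and left-out arrays.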

Additional observations from a re-analysis of the deposited data

Results flagged for a closer look

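For each of the 9 genes, the 6 arrays of a compartment and exposure, both genotypes together, were searched on the log2 scale for a highest or lowest array that stood apart. The gap to the next array, as a share of the range of the 6 arrays, passed Dixon's 95% critical value in 13 of 54 sets. Chance gives about 1 in 20, and sets of different genes share arrays. In all 13 sets the array was the lowest.

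In the stroma after vehicle, ERα(+/+) replicate 2 stood apart for Tagln (a share of 0.666), Myl9 (0.714) and Rgs5 (0.740). In the stroma after BPA, ERα(+/+) replicate 3 stood apart for Myh11 (0.771), Myl9 (0.663) and Cspg4 (0.788). Both are among the dimmest arrays, and the part of this in the values was not tested. Stroma ERα(−/−) BPA replicate 1, 1 of the arrays with high skeletal muscle signals, stood apart for Rgs5 (0.665), and stroma ERα(+/+) EE2 replicate 2, another of them, for Mylk (0.665).

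In the epithelium after BPA, ERα(+/+) replicate 2 stood apart for Myh11 (0.640), Cnn1 (0.739) and Mylk (0.695), and ERα(+/+) replicate 3 for Cspg4 (0.645). After EE2, epithelium ERα(+/+) replicate 3 stood apart for Cspg4 (0.728).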

How the results depend on the processing

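Between stroma and epithelium, the number of the 9 genes called ranged from 4 to 7 over the alternatives and was 6 in each fit that left out 1 gland. Quantile normalization and subtraction of array medians gave 7, with Acta2. Without the replicate block, or with the gland as a random block, 4 were called, Tagln and Cspg4 being lost. Cnn1 turned to 0.025 after subtraction of array medians and to 0.15 without the 3 arrays of lowest median, an alternative chosen after seeing the data. Dimmer probe sets gave −0.62 for Acta2 and −0.55 for Myh11, and the cause was not tested.

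In the exposure and genotype comparisons none of the 9 genes was called with the replicate number as a block, and whether the numbers mark shared litters is not given in the labels. Leaving out 1 array gave 0 to 1 called genes for BPA in the epithelium, the 1 being Mylk without ERα(+/+) vehicle replicate 3. With ERα(+/+) BPA replicate 1 left out too, Mylk had 2.37 (adjusted p = 0.111). Without the vehicle array alone but after quantile normalization it had 1.91 (adjusted p = 0.221). Both alternatives were chosen after seeing the data. Over all alternatives the adjusted p of Mylk ran from 0.0458 to 0.628. The methods' t-test, unadjusted and with a fold of at least 2, called 2 genes for BPA (Mylk and Pdgfrb), 1 for EE2 (Pdgfrb) and 1 for BPA against EE2 (Cnn1) in the epithelium. In the same order, this rule called 4852, 1938 and 1297 of all 45101 probe sets. In ERα(−/−) epithelium the t-test called 6 genes for BPA and 2 for EE2, beside 3852 and 2386 probe sets. In the stroma it called 1 gene for EE2 (Cspg4) and 1 between genotypes after vehicle (Myh11), beside 1390 and 822 probe sets. After Benjamini-Hochberg adjustment the t-test called 0 of the 9 genes in each comparison.

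The number of arrays, 3 a group, and the unequal array medians limit the exposure values, and Cnn1 lay near the dim end of the arrays.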
